A study of Mus musculus with 6 samples.

Results

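The genes described here are 9 genes of the brain's extracellular matrix, chosen by name from a list of lecticans, link proteins and tenascins. They are the lecticans Acan, Bcan, Ncan and Vcan, the link proteins Hapln1, Hapln2 and Hapln4, and the tenascins Tnr and Tnc. All 9 were measured, out of 22180 genes tested. No cut on measured values was used to list them, but earlier results of these data were known when they were chosen. Each gene is read by the probe set that the platform annotation pairs with that symbol alone. Ncan had 2 such probe sets, of which the brighter was used, and the other genes had 1 each.

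Lecticans are chondroitin sulphate proteoglycans that hold on to hyaluronan at one end and to tenascins at the other. Link proteins clamp the bond between lectican and hyaluronan, and tenascin-R, the product of Tnr, ties lecticans to each other. Together they form the loose matrix between brain cells and its dense form, the perineuronal net, which wraps the cell bodies of fast-spiking parvalbumin interneurons and, in the hippocampus, pyramidal neurons of CA2. Nets close late in postnatal life and limit the remodelling of synapses.

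RNA of hippocampi dissected from hemibrains was hybridised to 6 Affymetrix whole-transcript arrays, 3 from Ahr-KO mice and 3 from wild-type mice, with a separate mouse for each array. The receptor encoded by Ahr, the aryl hydrocarbon receptor, is switched on by small ligands and then binds DNA, and the comparison asks which hippocampal genes differ when it is missing. The labels give neither the Ahr allele, the strain, the age nor the sex, and name no treatment. Values are log2 signals, normalised by the authors over all arrays, so 1 unit is a doubling and a change in total RNA would not be seen. Signals of different probe sets are not on a common scale, so differences between genotypes are taken within each gene. Percentiles, array medians and summed signals set different genes side by side and are rough guides to level only.

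Ahr itself read 6.62, 6.91 and 6.74 on the Ahr-KO arrays and 7.68, 7.50 and 7.44 on the wild-type arrays, and so was lower on every Ahr-KO array. Ahr differed by -0.78 ± 0.1 log2 (SE; limma unadjusted p = 4.33e-05, rank 3 of all genes, adjusted p = 0.32). Even the targeted gene thus did not reach adjusted p under 0.05, the threshold used below. Which part of the gene its probe set reads is not given in the sources used here. All 10 markers of hippocampal pyramidal and granule neurons lay above the array median on every array, with Zbtb20, Calb1 and Wfs1 the brightest. So did 6 of the 8 measured markers of thalamus, striatum and neocortex, of 11 listed. Lying above the median therefore does not tell hippocampus from neighbouring tissue. Ahr-KO array 1 and wild-type array 2 stood apart from the rest, with marker scores for choroid plexus epithelium of 1.11 and 0.63 log2, against -0.46 and -0.39 on the other Ahr-KO arrays and -0.50 and -0.39 on the other wild-type arrays. A marker score is the mean over a list, here 11 measured of 12, of each gene's log2 value minus its mean over the 6 arrays. Their summed linear signal ran from 1070 to 10871 on Ahr-KO arrays and from 1068 to 7681 on wild-type arrays. Ahr-KO array 1 was also lowest for all 11 measured markers of mature oligodendrocytes, of 12 listed. By score it was the lowest array for microglia (-0.2), fast-spiking neurons (-0.13), oligodendrocyte precursors (-0.11) and astrocytes (-0.07) as well. In the other marker lists it was not the lowest. In whole-tissue RNA, fewer cells of a type and less RNA per cell cannot be told apart.

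None of the 9 genes differed between the genotypes past the threshold of adjusted p under 0.05, and 0.0% of all genes tested did (limma, Benjamini-Hochberg over 22180 genes). At unadjusted p under 0.05 the count was also 0 of 9, where 6.18% of all genes passed. The genotypes overlapped in each of the 9, while their values did not overlap in 11.9% of all genes. In mean signal 4 of the 9 were higher and 5 lower in Ahr-KO, a split that ran from 3 higher and 6 lower, after median centring or quantile normalization among others, to 6 higher and 3 lower without the 2 arrays high in choroid plexus markers. The median difference, Ahr-KO minus wild type, was -0.01 log2 over the 9 genes and 0.002 over all genes, and the median size of the difference was 0.07 log2 in each set. The 95% intervals (limma) reached at most from -0.58 to 0.52 log2, so a difference of more than 1.49-fold in either direction lay outside the interval of every one of the 9 genes, while smaller ones did not.

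**Figure D1:**
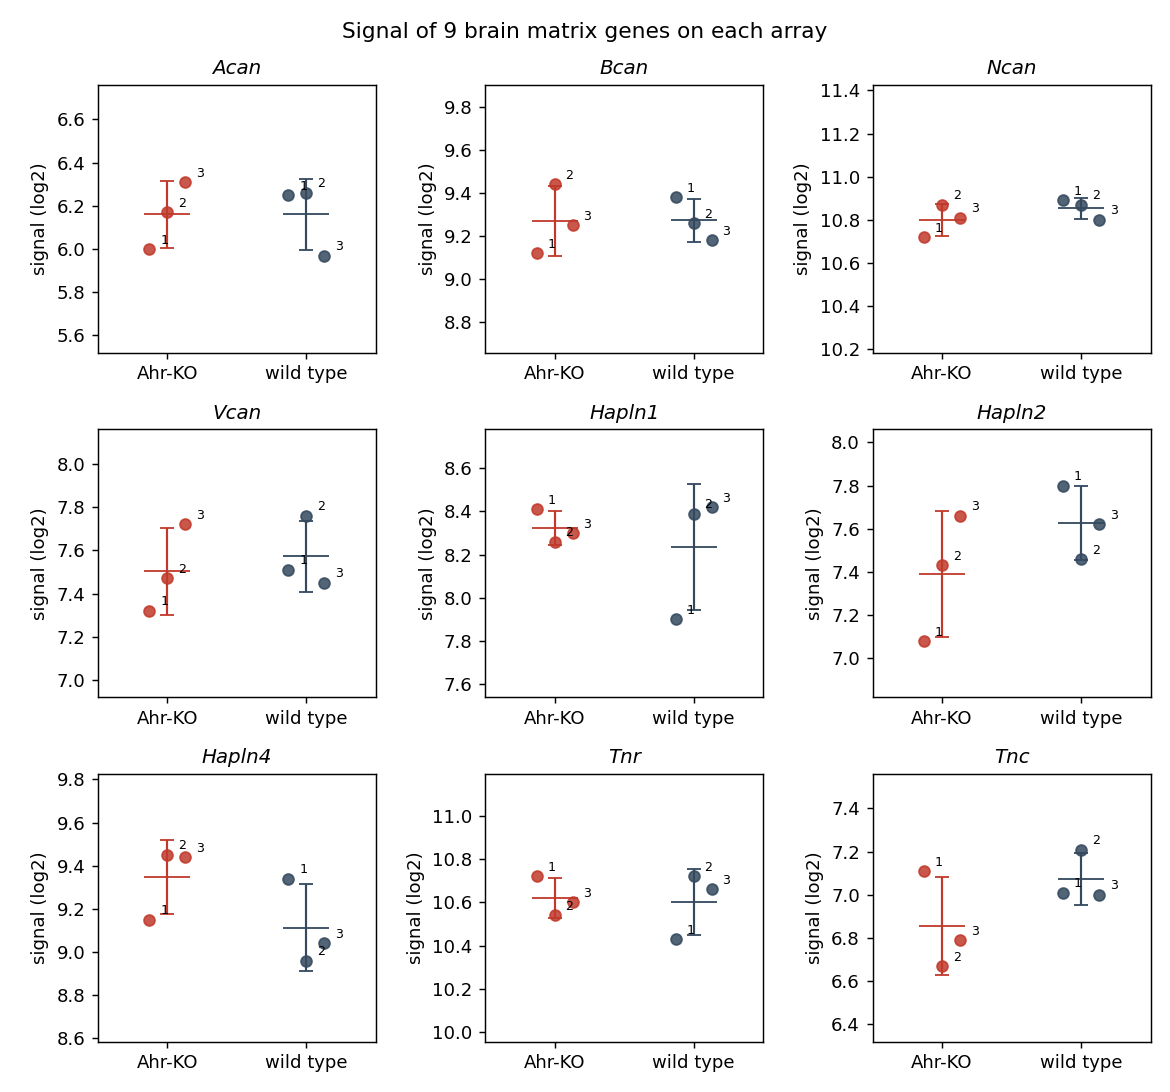
Signal (log2) of the 9 matrix genes on each array, with Ahr-KO left and wild type right. Points are arrays with their mouse number, the long bar is the mean and the error bar the SD (n = 3 each); every panel spans the same log2 range. The genotypes overlap in all 9 panels.

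The promoters of these genes are shown because the receptor binds DNA through a short core, GCGTG, known from its classical target genes. RefSeq promoter windows of build GRCm38.p6, 250 bases before to 50 after a start, were found for 8 of the 9 genes, all but Hapln4, in 9 windows. GCGTG occurred on either strand in 3 of these 9 windows, and in 32.4% of the 32851 windows of all genes. The longer form TNGCGTG, which contains the core, occurred in 1 of the 9 and in 5.07% of all windows. The match is one of letters and shows no binding. The windows with the core are those of Acan, of Ncan, which holds the longer form, and of the more downstream of 2 starts of Tnc. The core is in capitals, and reads CACGC where it lies on the opposite strand.
Acan promoter, chr7:79052976-79053275, plus strand: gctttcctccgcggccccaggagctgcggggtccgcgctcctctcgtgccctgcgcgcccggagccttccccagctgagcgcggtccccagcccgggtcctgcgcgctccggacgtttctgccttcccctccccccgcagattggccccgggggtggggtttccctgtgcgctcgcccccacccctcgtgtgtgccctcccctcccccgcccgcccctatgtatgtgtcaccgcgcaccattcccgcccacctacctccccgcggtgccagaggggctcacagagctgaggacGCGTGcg
Ncan promoter, chr8:70120795-70121094, minus strand: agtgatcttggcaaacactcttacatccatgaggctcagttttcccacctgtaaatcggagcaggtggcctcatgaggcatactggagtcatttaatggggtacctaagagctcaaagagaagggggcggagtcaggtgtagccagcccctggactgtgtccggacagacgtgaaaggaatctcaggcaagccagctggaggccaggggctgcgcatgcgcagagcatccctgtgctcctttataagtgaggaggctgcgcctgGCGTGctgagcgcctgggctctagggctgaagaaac
Tnc promoter, chr4:64046887-64047186, minus strand: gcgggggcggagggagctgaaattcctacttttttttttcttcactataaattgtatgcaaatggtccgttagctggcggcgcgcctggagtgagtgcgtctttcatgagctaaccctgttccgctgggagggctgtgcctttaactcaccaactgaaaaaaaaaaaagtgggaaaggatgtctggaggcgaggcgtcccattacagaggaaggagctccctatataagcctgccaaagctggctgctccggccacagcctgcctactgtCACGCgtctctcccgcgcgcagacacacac

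Among the lecticans, the means of the 2 genotypes lay within 0.07 log2 of each other for all 4 genes, with Ncan read by its brighter probe set. Acan encodes aggrecan, the lectican that perineuronal nets depend on most. It read 6.0, 6.17 and 6.31 log2 on Ahr-KO arrays and 6.25, 6.26 and 5.97 on wild-type arrays. The ranges nearly coincided, the lowest and highest single values being a wild-type and an Ahr-KO array, and the difference was 0.00 log2 (95% interval -0.26 to 0.26; limma adjusted p = 1.0). Acan was the only gene of the 9 below the array median, at the 43.0th to 47.8th percentile of genes, and lay below it on every array.

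Bcan encodes brevican, a lectican of the adult brain made largely by glia and found around synapses. It read 9.12, 9.44 and 9.25 log2 on Ahr-KO arrays and 9.38, 9.26 and 9.18 on wild-type arrays. Ahr-KO arrays held both the lowest and the highest value, with the wild-type arrays in between, and the difference was -0.01 log2 (-0.24 to 0.22; adjusted p = 0.996).

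Ncan encodes neurocan, which is most abundant in the developing brain and is carried by neurons and astrocytes. Its brighter probe set had the tightest values of the 9 genes, with a within-genotype SD of 0.06 log2, at the 13.1st percentile of all genes. It read 10.72, 10.87 and 10.81 on Ahr-KO arrays and 10.89, 10.87 and 10.80 on wild-type arrays, which overlap, and differed by -0.05 (-0.22 to 0.12; adjusted p = 0.933). The dimmer Ncan probe set went the other way. It read 8.08, 8.13 and 8.20 on Ahr-KO arrays and 7.54, 8.04 and 8.02 on wild-type arrays, so that every Ahr-KO value was above every wild-type value and wild-type array 1 was far below the rest. That difference was 0.27 ± 0.13 log2 (SE; limma over 23521 probe sets, unadjusted p = 0.0767, adjusted p = 0.820). Its unadjusted p was below the 0.0947 of Hapln4 in the same fit. The mean of both probe sets differed by 0.11.

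Vcan encodes versican, which is made by oligodendrocyte precursors among other cells and lies at nodes of Ranvier. It read 7.32, 7.47 and 7.72 log2 on Ahr-KO arrays and 7.51, 7.76 and 7.45 on wild-type arrays. The values of the genotypes were interleaved, and the difference was -0.07 (-0.35 to 0.21; adjusted p = 0.954). It was 0.12 without the 2 arrays high in choroid plexus markers.

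The link proteins among the 9 genes spread more between mice of one genotype than most genes did. They lay at the 82.8th to 92.9th percentile of within-genotype SD over all genes. Vcan (82.6th) and Tnc (80.9th) spread almost as much, while Hapln3, a link protein outside the 9, lay at the 5.4th. Hapln4, which partners brevican at synapses and in nets, had the lowest unadjusted p of the 9 genes by brightest probe set (limma, 0.0944), at rank 2552 of all genes. It read 9.15, 9.45 and 9.44 log2 on Ahr-KO arrays and 9.34, 8.96 and 9.04 on wild-type arrays. Ahr-KO arrays 2 and 3 exceeded every wild-type array, while Ahr-KO array 1 lay below wild-type array 1. Hapln4 averaged 9.35 ± 0.17 in Ahr-KO and 9.11 ± 0.20 in wild type (SD, n = 3 each), a difference of 0.23 ± 0.12 (SE; -0.05 to 0.52; limma adjusted p = 0.817). Within each genotype the array high in choroid plexus markers had the lowest Hapln4 value, and the lowest Hapln2 value too. Without those 2 arrays the Hapln4 difference was 0.26 (unadjusted p = 0.0752, adjusted p = 0.847), about as large as with them.

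Hapln2, an oligodendrocyte gene whose product sits at nodes of Ranvier with versican, read 7.08, 7.43 and 7.66 log2 on Ahr-KO arrays and 7.80, 7.46 and 7.62 on wild-type arrays. Its range of 0.72 log2 over the arrays was the widest of the 9 genes, and Ahr-KO array 1 was the lowest by a wide gap. It averaged 7.39 ± 0.29 in Ahr-KO and 7.63 ± 0.17 in wild type (SD, n = 3 each), a difference of -0.23 ± 0.15 (SE; -0.58 to 0.11; limma adjusted p = 0.842). The score of mature oligodendrocyte markers was -0.35, 0.11 and 0.12 on Ahr-KO arrays and 0.04, 0.05 and 0.03 on wild-type arrays, so Ahr-KO array 1 was the lowest in this score as well. The summed linear signal of those markers ran from 9996 to 13890 on Ahr-KO arrays and from 12540 to 12896 on wild-type arrays. Ahr-KO array 1 was the lowest in the scores of microglia, fast-spiking neurons, oligodendrocyte precursors and astrocytes too. Without Ahr-KO array 1 the Hapln2 difference was -0.08, and without Ahr-KO array 3 it was -0.37 (unadjusted p = 0.0347, adjusted p = 0.972), where 5.08% of all genes had an unadjusted p under 0.05.

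Hapln1, the link protein most used in perineuronal nets, had 1 wild-type mouse apart from the others. It read 8.41, 8.26 and 8.30 log2 on Ahr-KO arrays and 7.90, 8.39 and 8.42 on wild-type arrays. Apart from wild-type array 1 the values lay close together, and that array was the low one of the dimmer Ncan probe set too. The difference was 0.09 ± 0.14 (SE; -0.23 to 0.40; limma adjusted p = 0.944) with all arrays and -0.08 without wild-type array 1.

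**Figure D2:**
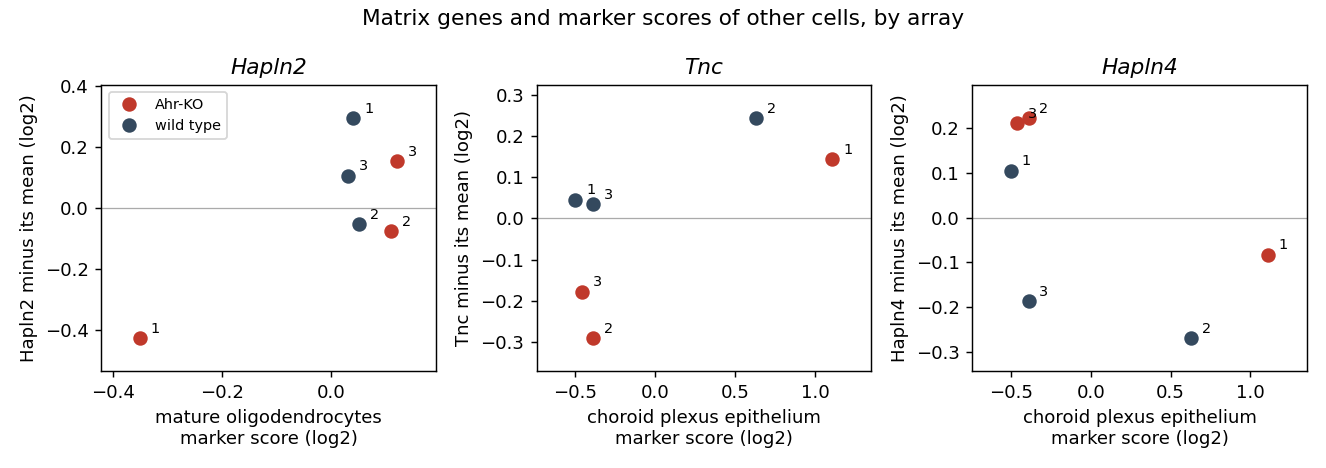
Value of Hapln2, Tnc and Hapln4 on each array minus the gene's mean (log2, vertical) against the array's marker score for mature oligodendrocytes or choroid plexus epithelium (log2, horizontal). Points are arrays labelled with the mouse number, red for Ahr-KO and dark for wild type; Ahr-KO array 1 is lowest in Hapln2 and in oligodendrocyte markers, and within each genotype the array high in choroid plexus markers is the highest in Tnc and the lowest in Hapln4.

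The tenascins differed from each other in their spread. Tnr encodes tenascin-R, a protein of oligodendrocytes and some interneurons that cross-links lecticans in nets. It read 10.72, 10.54 and 10.60 log2 on Ahr-KO arrays and 10.43, 10.72 and 10.66 on wild-type arrays. The genotypes overlapped, and Ahr-KO array 1 and wild-type array 2 shared the highest value. The difference was 0.02 (-0.20 to 0.24; adjusted p = 0.989). Ahr-KO array 1, the lowest array for Hapln2, was thus among the highest for Tnr.

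Tnc encodes tenascin-C, a protein of the embryonic brain, of stem cell niches and of reactive astrocytes. It read 7.11, 6.67 and 6.79 log2 on Ahr-KO arrays and 7.01, 7.21 and 7.0 on wild-type arrays. Ahr-KO arrays 2 and 3 lay below every wild-type array, and Ahr-KO array 1 lay among them. Tnc averaged 6.85 ± 0.22 in Ahr-KO and 7.07 ± 0.12 in wild type (SD, n = 3 each), a difference of -0.22 ± 0.12 (SE; -0.49 to 0.06; limma adjusted p = 0.823). Tnc was highest within each genotype on the array high in choroid plexus markers, as was Tnr. Without those 2 arrays the Tnc difference was -0.27 (unadjusted p = 0.0292, adjusted p = 0.788), where 6.05% of all genes had an unadjusted p under 0.05. Without Ahr-KO array 1 alone it was -0.34 (unadjusted p = 0.0100, adjusted p = 0.759), where 5.95% did. Astrocyte marker scores were -0.07, 0.04 and 0.00 on Ahr-KO arrays and 0.00, 0.01 and 0.02 on wild-type arrays.

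**Figure D3:**
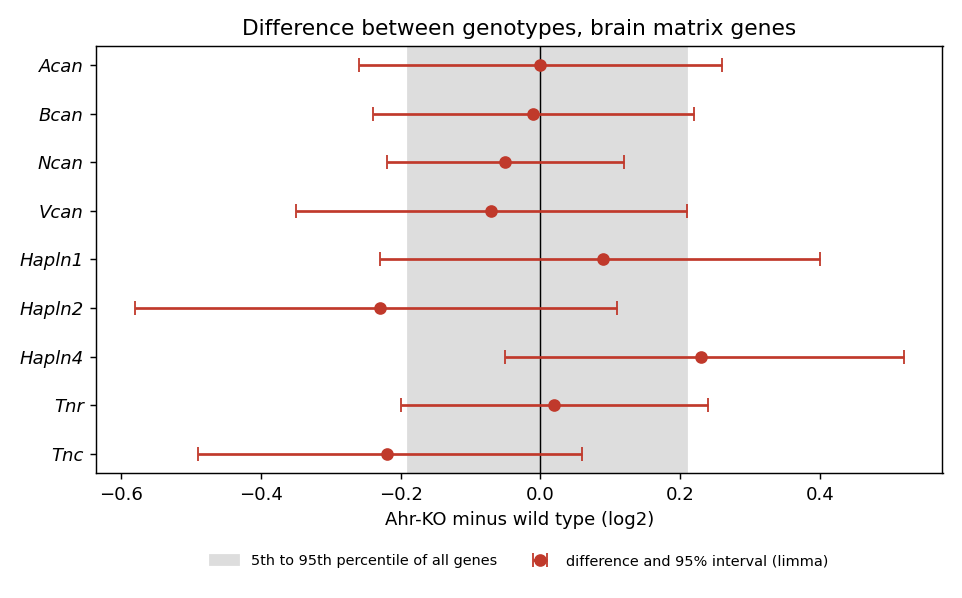
Difference between genotypes (Ahr-KO minus wild type, log2) for each matrix gene with its 95% interval from limma (n = 3 each). The grey band holds the 5th to 95th percentile of all genes, -0.19 to 0.21; every interval includes 0, and Hapln4, Hapln2 and Tnc have estimates outside the band.

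Lectican and link protein genes lie side by side in the mouse genome, as Bcan with Hapln2 on chromosome 3, Ncan with Hapln4 on chromosome 8, Vcan with Hapln1 on chromosome 13 and Acan with Hapln3 on chromosome 7. In GRCm38.p6 0 protein-coding genes lie between the members of each pair. For each pair the log2 ratio of link protein to lectican within an array was taken, minus its mean over the 6 arrays. Hapln4 over Ncan averaged 0.14 ± 0.11 in Ahr-KO and -0.14 ± 0.18 in wild type (SD, n = 3 each), a change of 0.29. In this ratio Ahr-KO array 1 (0.02) lay below wild-type array 1 (0.05). Ncan is read here by its brighter probe set, which differed by -0.05 between genotypes. The dimmer Ncan probe set differed by 0.27, close to the 0.23 of Hapln4, and the ratio to it was not taken. The change of 0.29 thus rests on the choice of Ncan probe set. Hapln2 over Bcan averaged -0.11 ± 0.25 in Ahr-KO and 0.11 ± 0.14 in wild type, a change of -0.23. Hapln1 over Vcan changed by 0.16 and Hapln3 over Acan by -0.19, with SDs of 0.26 and 0.15 in Ahr-KO and 0.29 and 0.11 in wild type. The genotypes overlapped in all 4 ratios, and no test was run on them.

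**Figure D4:**
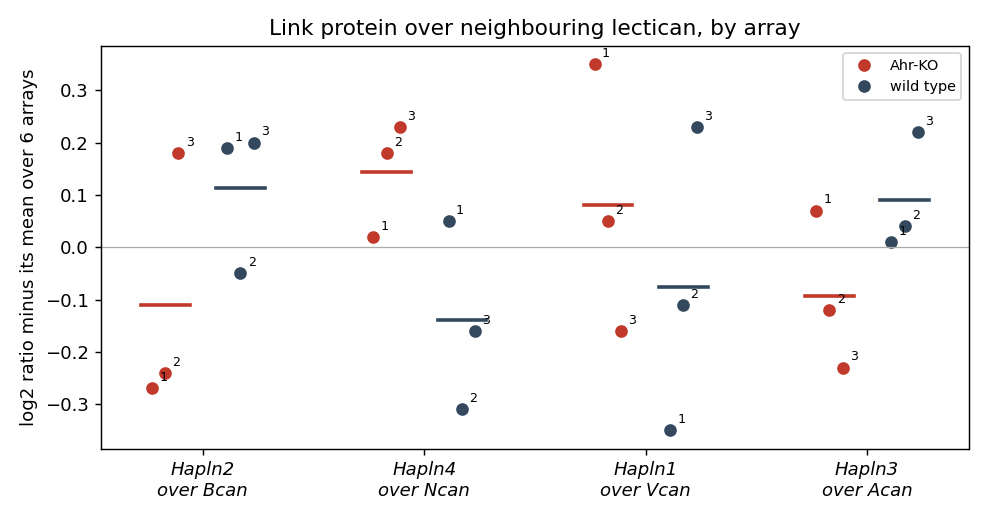
Log2 ratio of each link protein to the lectican next to it in the genome, minus the ratio's mean over the 6 arrays (vertical), for 4 gene pairs. Ncan is read by its brighter probe set only. Points are arrays labelled with the mouse number, Ahr-KO left in red and wild type right, and bars are means of 3; the genotypes overlap in every pair.

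Genes that make, cut or bind this matrix were read from 5 lists, and 0 of the 71 measured genes of 75 listed passed adjusted p under 0.05. At unadjusted p under 0.05, 3 were higher and 4 lower in Ahr-KO, 9.86% together, where 3.53% of all genes were higher and 2.65% lower. Their median difference was 0.00 log2. Without the 2 arrays high in choroid plexus markers 4 of the 71 had an unadjusted p under 0.05, where 6.05% of all genes did.

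The hyaluronan list, 11 measured of 12, held 3 of these 7 genes. Cd44, the main cell-surface receptor for hyaluronan, read 5.25, 5.10 and 5.35 log2 on Ahr-KO arrays and 5.79, 5.37 and 5.95 on wild-type arrays. Every Ahr-KO value was below every wild-type value, though wild-type array 2 by little, and the difference was -0.47 ± 0.15 (SE; limma unadjusted p = 0.0115, adjusted p = 0.770). Cd44 lay below the array median on all arrays. Tnfaip6, a secreted hyaluronan-binding protein with a link module like that of the lecticans, averaged 7.08 ± 0.24 in Ahr-KO and 7.43 ± 0.05 in wild type (SD, n = 3 each; difference -0.35, adjusted p = 0.775). Hyal3, of the hyaluronidase family, averaged 6.07 ± 0.16 in Ahr-KO and 5.77 ± 0.23 in wild type (difference 0.30, adjusted p = 0.806).

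The chondroitin sulphate list covers the enzymes that build and sulphate the sugar chains of lecticans, and 0 of its 19 measured genes, of 21, had an unadjusted p under 0.05. Nearest were the sulphotransferases Chst3, at 0.15 ± 0.08 log2 (SE), and Chst13, at -0.25 ± 0.15. Among 17 proteases and inhibitors 1 gene was higher at unadjusted p and 0 were lower. It was Timp3, an inhibitor of the metalloproteases that cleave lecticans, which averaged 9.64 ± 0.05 in Ahr-KO and 9.42 ± 0.11 in wild type (SD, n = 3 each; difference 0.22, limma unadjusted p = 0.0242, adjusted p = 0.796).

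Of the receptors and binding partners, 19 measured of 20, Fbln1 was higher and Itgb1 lower at unadjusted p under 0.05. Fbln1 encodes fibulin-1, which binds the lectin domain of aggrecan and versican. It read 7.93, 7.78 and 7.88 log2 on Ahr-KO arrays and 7.61, 7.48 and 7.58 on wild-type arrays, a clear gap between the genotypes, and differed by 0.30 ± 0.08 (SE; unadjusted p = 0.00393, rank 104 of all genes, limma adjusted p = 0.769). Itgb1, the common beta chain of many matrix receptors, differed by -0.20 ± 0.08 (unadjusted p = 0.0423, adjusted p = 0.806). The last list, of 5 related genes, held Hapln3, the link protein next to Acan. Hapln3 read 5.45, 5.42 and 5.46 on Ahr-KO arrays and 5.63, 5.68 and 5.57 on wild-type arrays, a small step of -0.19 ± 0.07 without overlap (unadjusted p = 0.0298, adjusted p = 0.797), at signals below the array median.

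**Figure D5:**
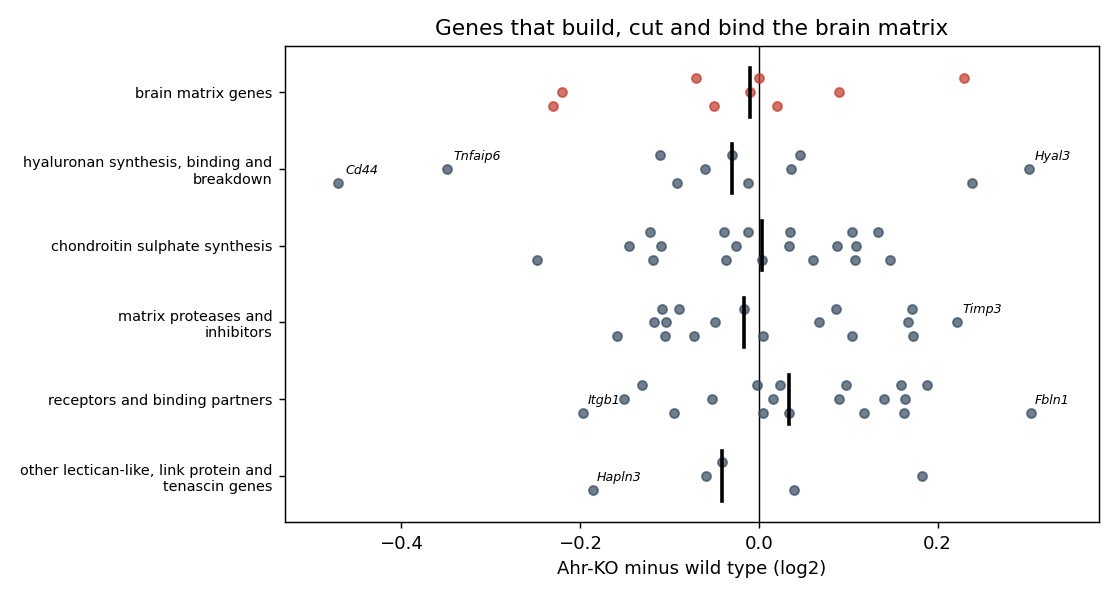
Difference between genotypes (Ahr-KO minus wild type, log2, horizontal) of each measured gene of the 9 matrix genes and of the 5 lists of genes that make, cut or bind the matrix. Each point is a gene, black bars are medians, and genes at unadjusted p under 0.05 are named; the medians lie between -0.04 and 0.03.

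Markers of the neurons that carry nets were read in the same way. For fast-spiking neurons, 6 of 7 measured, the score was -0.13, 0.09 and -0.01 log2 on Ahr-KO arrays and 0.02, 0.01 and 0.01 on wild-type arrays. At unadjusted p under 0.05, 1 gene was higher and 1 lower in Ahr-KO, where 3.53% of all genes were higher and 2.65% lower. The higher gene was Cox6a2, a respiratory chain subunit, which averaged 7.47 ± 0.25 in Ahr-KO and 7.13 ± 0.04 in wild type (SD, n = 3 each). The lower was Pvalb, the parvalbumin gene, named after its values were seen, at 7.10 ± 0.21 in Ahr-KO and 7.49 ± 0.13 in wild type (difference -0.39, limma adjusted p = 0.770). The potassium channel gene Kcnc1, which supports fast firing, averaged 8.15 ± 0.06 in Ahr-KO and 8.25 ± 0.05 in wild type (SD, n = 3 each). Its values overlapped between the genotypes (difference -0.09, limma unadjusted p = 0.248). Kcnc2, the brightest gene of the list, overlapped too (difference -0.04, limma unadjusted p = 0.644). For CA2 pyramidal neurons, 6 of 6 measured, the score was 0.05, -0.04 and 0.00 on Ahr-KO arrays and -0.09, 0.14 and -0.06 on wild-type arrays, with 0 genes at unadjusted p under 0.05. Precursor markers of the oligodendrocyte lineage, 10 of 10 measured, scored -0.11, 0.11 and 0.04 on Ahr-KO arrays and -0.01, -0.02 and -0.01 on wild-type arrays. Whether shares of these cells bear on the matrix genes was not tested.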

How the data were processed

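Signals came from 1 array per mouse, 3 Ahr-KO and 3 wild type. The authors deposited log2 values per probe set; per the submitters' processing notes, which list RMA and Affymetrix Expression Console, they are RMA signals, and neither a version nor a genome build is stated there. RMA corrects background, quantile-normalizes arrays and summarises probes, which tends to compress fold changes. Of 41345 rows, 23521 carried 1 symbol, updated by Entrez ID to RefSeq GRCm38.p6 where matched (23328). The brightest probe set per gene gave 22180 genes, with no filter on dim signals.

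The test between genotypes was the two-sided moderated test of limma 3.58.1 (R 4.3.3; lmFit, then eBayes with no trend and no covariate) with Benjamini-Hochberg adjustment over all genes and a threshold of 0.05, also run on simulated data. It had 4 residual and 4.33 prior degrees of freedom. Precision is limited by the 3 arrays per genotype, with which an exact permutation test cannot give a p under 0.1.

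The matrix genes, lists and alternatives were chosen with earlier results of these data known. Named are the 9 matrix genes, Ahr, genes of each pathway list at unadjusted p under 0.05 (at most 6, otherwise the 2 with the lowest p), up to 3 of the brightest markers of a list, and the 4 genes most like the matrix gene with the lowest p. For those 4, predicted genes, cDNA clones and microRNAs were passed over. Alternatives covered the variance model, array weights, normalization, filters, probe sets, a replicate block and left-out arrays. Figures were drawn with matplotlib 3.10.9.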

Additional observations from a re-analysis of the deposited data

How the results depend on the processing

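Over 18 alternatives 0 of the 9 matrix genes passed adjusted p under 0.05, with adjusted p from 0.616 to 1.0. At unadjusted p under 0.05 the count was 1 with array weights (Hapln4, 0.28 log2, where 7.89% of all genes passed), 1 without both arrays high in choroid plexus markers (Tnc, where 6.05% passed), and 0 to 2 when 1 array was left out, where 5.07% to 7.22% passed. Those were Hapln4 and Tnc without Ahr-KO array 1, Hapln2 without Ahr-KO array 3 and Hapln4 without wild-type array 1. Genes whose genotypes did not overlap numbered 2 without both choroid plexus arrays, where 34.6% of all genes did not overlap, and 0 to 2 with 1 array left out, where 19.7% to 24.4% did not. Pathway genes at unadjusted p under 0.05 numbered 4 of 71 without both choroid plexus arrays, where 6.05% of all genes passed. They numbered 5 to 9 of 71 with 1 array left out, where 5.07% to 7.22% passed. In the other alternatives they numbered 5 to 7, where 4.34% to 7.89% passed. Only 47 pathway genes were tested among genes at or above the median level, and 5 of those 47 passed, where 7.08% of all genes did.

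Differences near 0 changed sign, and the cause was not tested. Acan stood at -0.0062 after quantile normalization and -0.0001 after median centring, Tnr at -0.0041 with array weights, Ncan at 0.11 as the mean of its probe sets, and Bcan at 0.0633 and Vcan at 0.12 without both choroid plexus arrays. With each array left out in turn the difference ran from -0.0948 to 0.0803 for Acan, -0.0923 to 0.0685 for Bcan, -0.18 to 0.0231 for Vcan, -0.0809 to 0.18 for Hapln1 and -0.0667 to 0.0743 for Tnr. Hapln4 (0.16 to 0.35), Hapln2 (-0.37 to -0.08), Tnc (-0.34 to -0.13) and Ncan (-0.09 to -0.01) kept their sign there. Acan was not tested among genes at or above the median level, being below it.

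The labels do not say whether mice with the same number were paired in any way. Deviations of same-numbered arrays correlated at -0.15, -0.22 and 0.05. With the number as a replicate block 0 of the 9 genes had an unadjusted p under 0.05. So did 5 of the 71 pathway genes, where 5.06% of all genes did.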

Other observations

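Values over the 6 arrays were compared between Hapln4 and 11089 other genes at or above the median level. Predicted genes, cDNA clones and microRNAs were passed over for naming. The 4 closest genes of the rest were Shmt2, Zfp395, Cdkn1a and Myl6b. The root mean square difference between their centred profiles and that of Hapln4 was 0.051 to 0.0631 log2, against a median of 0.214 over all genes compared. Shmt2, a mitochondrial serine hydroxymethyltransferase, read 7.99, 8.30 and 8.20 log2 on Ahr-KO arrays and 8.11, 7.82 and 7.95 on wild-type arrays. Cdkn1a, a cell cycle inhibitor, read 7.72, 8.10 and 8.05 on Ahr-KO arrays and 7.99, 7.65 and 7.79 on wild-type arrays. As in Hapln4, Ahr-KO arrays 2 and 3 were the highest and wild-type array 2 the lowest in both. This order follows from picking them for their likeness to Hapln4 and is no separate result. Of the other matrix genes Bcan came nearest to Hapln4, at 0.154, and Tnc was the farthest, at 0.361.

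Of the 7 pathway genes at unadjusted p under 0.05, Fbln1 stayed under it in all 18 alternatives (0.23 to 0.34 log2, adjusted p = 0.539 to 0.972) and Cd44 in 16 of the 17 in which it was tested (-0.65 to -0.35, adjusted p = 0.576 to 0.972), the exception being the ordinary linear model. The others were under it in fewer, Tnfaip6 in 15 of 18, Timp3 in 14 of 18, Itgb1 in 10 of 18, Hyal3 in 10 of 17 and Hapln3 in 9 of 17 alternatives. These 7 genes were picked by their p in the main fit, and the alternatives reuse the same arrays. The counts are therefore no independent support.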
